A study of Mus musculus with 24 samples.

Results

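Hyperoxia (O2) was compared with room air (RA) in the lungs of selenium-sufficient (SeS) C3H/HeN mouse pups at postnatal day 1 (PN1). The comparison held 3 SeS O2 lungs and 3 SeS RA lungs, 6 of the 24 libraries of the series, and the groups were taken from the sample titles. O2 pups were kept at an FiO2 of 0.85 and RA pups at 0.21, beginning soon after birth, and nursing dams were rotated daily between both conditions. All 6 pups came from parents held on a chow with 0.4 ppm sodium selenite, so no group lacked selenium. Whole lungs were perfused with PBS, and poly(A)-selected, strand-specific libraries were sequenced. The 2nd SeS O2 library carried an oxygen label of 0.21 although its title names hyperoxia and the deposited sheet of groups lists it as O2. It was kept in the O2 group, and the main counts are also given without it. The labels do not say which pups shared a litter and give no sex, so p-values measure only the spread between libraries. In the main test that spread was estimated over all 24 libraries. Of 57010 genes in the table, 23831 were tested, and the 12464 that averaged at least 5 CPM over the 6 libraries are described here. CPM stands for a gene's count relative to its library's total, after correction by TMM factors.

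Breathing gas rich in oxygen raises the production of reactive oxygen species in the lung, and the newborn lung, which is still forming its alveoli, meets this load with inducible enzymes. NRF2 is the transcription factor that switches on many of them: it is held back by KEAP1, is released when KEAP1 is oxidized, and drives genes of glutathione synthesis, the thioredoxin system and quinone reduction. p53 is switched on by DNA damage and drives arrest of the cell cycle and cell death genes. Selenium enters these defenses as selenocysteine, which stands in the active site of the glutathione peroxidases and the thioredoxin reductases. Endothelial cells, macrophages and alveolar epithelial cells are among the lung cells described as responding to hyperoxia.

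The 6 libraries held 27715912 to 36121040 counts each, and every pair of them correlated at 0.974 or above on the log2 CPM scale. Lung markers were abundant in all 6. The surfactant gene Sftpc, which marks alveolar type 2 cells, stood at 15010, 17940 and 15310 CPM in O2 lungs, against 14450, 13250 and 13410 CPM in RA lungs. The Y-linked gene Ddx3y was expressed at 134 to 144 CPM in O2 replicates 1 and 3 and RA replicate 2 and was at or near 0 in the other 3 libraries. The first principal component, 46.3% of the variance, separated the libraries in this way. The second, 24.5%, placed the 3 O2 libraries below the 3 RA libraries, with scores of -4.67, -7.14 and -14.3 in O2 and -2.46, 13.9 and 14.7 in RA. Genes with at least 1 count numbered 31906, 32724 and 32504 in O2 libraries, against 27811, 28752 and 27097 in RA libraries. The smell receptor genes, which lung is not known for, summed to 112, 187 and 211 CPM in O2 libraries, against 28.5, 33.2 and 26.2 CPM in RA libraries. Sums of smell receptor genes are given without TMM factors. Among the 11367 genes tested with less than 5 CPM the median log2 fold change was 0.34, against 0.0026 among genes of at least 5 CPM; the part of these features in the results was not tested.

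**Figure D1:**
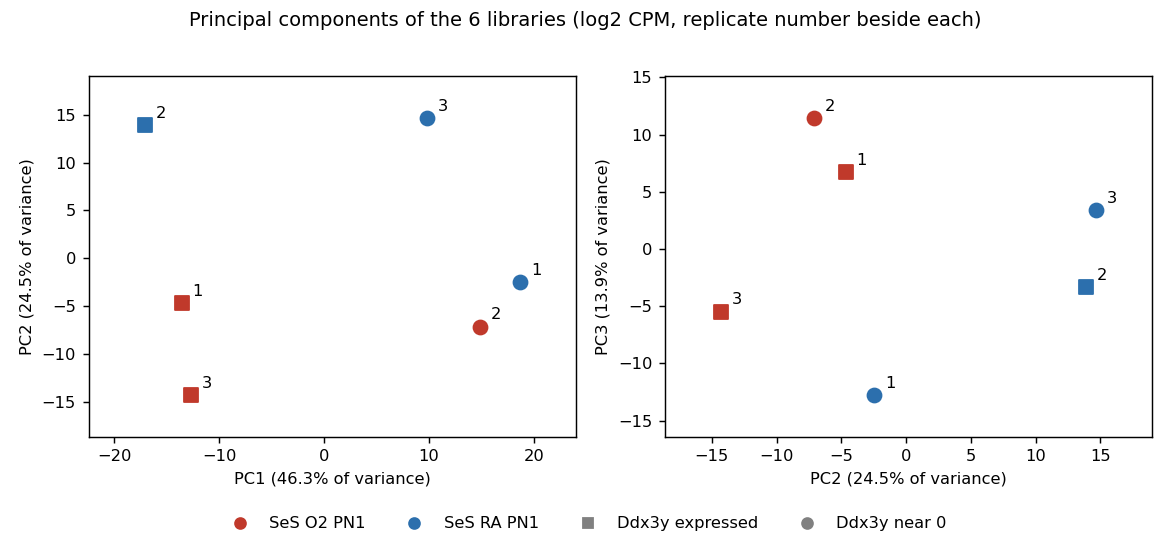
Principal components of the 6 SeS libraries at PN1 over the 12464 genes of at least 5 CPM, with PC2 against PC1 on the left and PC3 against PC2 on the right; red points are O2, blue points RA, and squares mark libraries that express Ddx3y. PC1 (46.3%) sets squares apart from circles, and on PC2 (24.5%) the O2 libraries lie below the RA libraries.

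Few genes passed the test at this age. In O2 lungs 5 genes of at least 5 CPM were higher and 1 was lower than in RA lungs, 6 of 12464 or 0.0481% (0.0401% higher and 0.00802% lower). A gene was called where edgeR's quasi-likelihood test over all 24 libraries gave an adjusted p under 0.05 and the log2 fold change was above 0.25 in either direction. The genes that rose were Eda2r, Gpx2, Aox1, Mmp19 and Txnrd1, and the gene that fell was Ntrk2. Over all 23831 genes tested 9 passed, or 0.0378%, and 3673, or 15.4%, had an unadjusted p under 0.05. The spread was wider over the 24 libraries (a biological coefficient of variation of 0.263) than over these 6 alone (0.131). These values cover different genes, 23831 in the fit of 24 libraries and 18943 in the fit of 6. The part of the gene sets in that gap was not tested. A fit of the 6 libraries alone called 59 genes of at least 5 CPM, 33 higher and 26 lower, or 0.473% (0.265% and 0.209%). The 6 genes above were among them. That larger number rested on single libraries. It was 69, 1 and 0 without O2 replicates 1, 2 and 3, and 206, 28 and 0 without RA replicates 1, 2 and 3. The count of 6 in the main test likewise became 3, 3 and 1 without O2 replicates 1, 2 and 3. It became 4, 2 and 1 without RA replicates 1, 2 and 3. Without RA replicate 2 Ntrk2 alone of the 6 genes was still called, and the other call was a gene outside the 6. Without the 2nd O2 library the called genes were Ntrk2, Eda2r and Txnrd1. None was called when the library with the conflicting oxygen label was counted as RA. Since whole lung was measured, fewer cells of a type and less RNA per cell cannot be told apart in any value given here. Each fold change below is O2 over RA in log2 with its standard error, and adjusted p-values are from edgeR's quasi-likelihood test over the 24 libraries unless the fit of 6 is named.

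Ntrk2 encodes TrkB, the receptor of brain-derived neurotrophic factor, and in lung it has been described in capillary endothelium and nerves. It measured 5.75, 3.78 and 3.54 CPM in O2 lungs, against 29.9, 14.8 and 24.98 CPM in RA lungs. The highest O2 lung stayed well below the lowest RA lung. Ntrk2 averaged 4.35 ± 1.21 CPM in O2 lungs and 23.2 ± 7.704 CPM in RA lungs (SD, n = 3 each), a log2 fold change of -2.41 ± 0.29 with an adjusted p of 0.00175. It was called without any one of the 6 libraries, and its log2 fold change then stayed between -2.68 and -2.18.

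Eda2r encodes a receptor of the TNF receptor superfamily that binds ectodysplasin A2 and is a p53 target. Its levels were 12.4, 6.66 and 13.5 CPM in O2 lungs, against 1.17, 1.45 and 1.97 CPM in RA lungs, so that all O2 lungs lay above all RA lungs, with the 2nd O2 lung the lowest of its group. The log2 fold change was 2.82 ± 0.42 (adjusted p = 0.0124), the largest among the called genes. The adjusted p was above 0.05 without O2 replicate 3 or without any one RA library, at 0.0557 to 0.176.

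Gpx2, the glutathione peroxidase of epithelia and a selenoprotein, had 18.3, 22.9 and 18.5 CPM in O2 lungs, against 7.59, 4.33 and 5.41 CPM in RA lungs. The groups did not overlap, and the 3 O2 lungs were close to each other. The means were 19.9 ± 2.62 CPM in O2 lungs and 5.78 ± 1.66 CPM in RA lungs (SD, n = 3 each), and the log2 fold change was 1.78 ± 0.29 (adjusted p = 0.0191). Txnrd1, the cytosolic thioredoxin reductase and likewise a selenoprotein, was more abundant and changed less: 123, 105 and 103 CPM in O2 lungs, against 72.6, 72.6 and 77.3 CPM in RA lungs. The 3 RA lungs were nearly equal, and the lowest O2 lung was above all of them. Txnrd1 averaged 110.1 ± 11.1 CPM in O2 lungs and 74.2 ± 2.73 CPM in RA lungs (SD, n = 3 each), with a log2 fold change of 0.57 ± 0.091 (adjusted p = 0.0191).

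Aox1 encodes aldehyde oxidase, a molybdenum enzyme that oxidizes aldehydes and many drugs. It had 16.6, 20.02 and 18.1 CPM in O2 lungs, against 11.2, 9.09 and 7.35 CPM in RA lungs, with no overlap and a log2 fold change of 0.99 ± 0.16 (adjusted p = 0.0191). Mmp19 encodes a matrix metalloproteinase that cleaves basement membrane proteins. It had 73.9, 75.7 and 69.6 CPM in O2 lungs, against 47.4, 32.5 and 32.9 CPM in RA lungs. The O2 lungs lay close together and the 1st RA lung stood above the other RA lungs, still below every O2 lung. The log2 fold change of Mmp19 was 0.96 ± 0.16 (adjusted p = 0.0279). Without 1 library the adjusted p of Gpx2, Txnrd1, Aox1 and Mmp19 was above 0.05 in 5, 5, 4 and 5 of 6 cases, and their fold changes kept their sign.

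**Figure D2:**
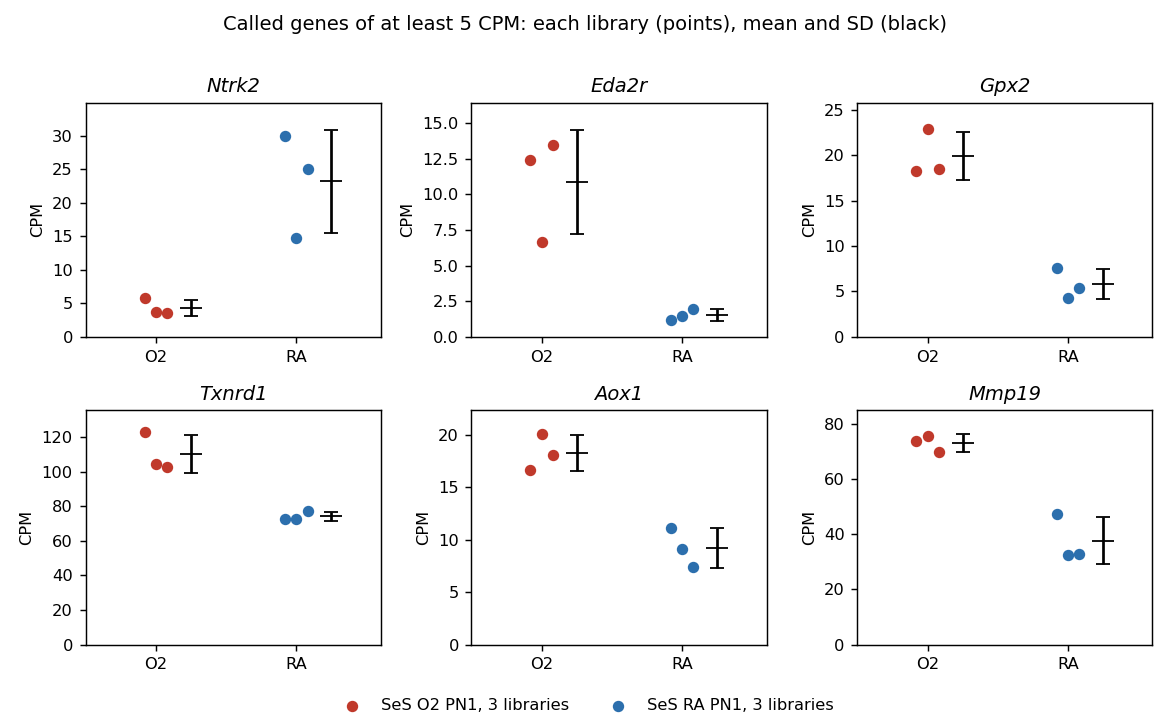
Levels in CPM (y axes start at 0) of the 6 called genes of at least 5 CPM in the 3 SeS O2 and 3 SeS RA libraries at PN1, each point a library and the black bars mean and SD. The O2 points of Ntrk2 lie below all RA points, and those of the other 5 genes lie above them.

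All 6 genes are annotated as protein-coding in GRCm39. Ntrk2 lies at chr13:58954176-59281784 on the plus strand and Eda2r at chrX:96320270-96420847 on the minus strand. Gpx2 lies at chr12:76839107-76842326 on the minus strand, Txnrd1 at chr10:82669785-82733546 on the plus strand, Aox1 at chr1:58068908-58145995 on the plus strand and Mmp19 at chr10:128626773-128636695 on the plus strand. NRF2 binds the antioxidant response element, whose core is TGACnnnGC. The promoter windows of the 3 called NRF2 targets were read for this core on both strands in RefSeq (build GRCm38.p6, 250 bases before to 50 after each start). It was found in 1 of the 3 windows of Txnrd1, shown because that window alone matched, and in neither the window of Aox1 nor that of Gpx2; over all 32851 windows 12.4% held the core. The matched Txnrd1 window is chr10:82858956-82859255 on the plus strand in GRCm38.p6, and the capitals mark the match, which reads TGACAAAGC on the opposite strand and lies 92 to 84 bases before the start.
Txnrd1: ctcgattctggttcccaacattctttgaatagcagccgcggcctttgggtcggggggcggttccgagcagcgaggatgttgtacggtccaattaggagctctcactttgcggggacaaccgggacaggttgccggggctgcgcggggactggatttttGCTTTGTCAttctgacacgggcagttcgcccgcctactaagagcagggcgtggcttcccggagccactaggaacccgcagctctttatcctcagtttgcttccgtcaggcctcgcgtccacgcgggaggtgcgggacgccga

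NRF2 targets lay mostly on the higher side. Of 26 members with at least 5 CPM, 3 rose (Txnrd1, Aox1 and Gpx2), against 0.0401% of all genes called higher, and none fell. In 23 of the 26 all O2 lungs were above all RA lungs, against 8.82% of all genes of at least 5 CPM, and in 1 all O2 lungs were below. The median log2 fold change of the list was 0.43, against 0.0026 over all genes, and 25 of 26 members were positive, also under both other scalings and without any one library. Nqo1, which reduces quinones to hydroquinones, just missed the threshold with 17.7, 17.9 and 14.3 CPM in O2 lungs, against 9.72, 7.81 and 8.49 CPM in RA lungs (log2 fold change 0.94 ± 0.17, adjusted p = 0.0574). Its O2 lungs were each well above the highest RA lung. Gclc, the catalytic subunit of the enzyme that limits glutathione synthesis, named after its values were seen, had 104, 102 and 98.96 CPM in O2 lungs, against 71.1, 55.7 and 58.7 CPM in RA lungs (log2 fold change 0.72 ± 0.13, adjusted p = 0.0574).

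In the fit of the 6 libraries alone 8 NRF2 targets were called higher, against 0.265% of all genes. Beside the 3 above these were Nqo1, Gclc, Gstm1, Me1 and Prdx1, and the last 3 are named here after their values were seen. Gstm1, a glutathione transferase, had 152, 147 and 133 CPM in O2 lungs, against 107, 89.9 and 99.3 CPM in RA lungs (log2 fold change 0.53 ± 0.081 in that fit, adjusted p = 0.0226). Me1, the cytosolic malic enzyme that makes NADPH, had 82.3, 87.1 and 86.5 CPM in O2 lungs, against 57.3, 65.1 and 67.6 CPM in RA lungs (log2 fold change 0.42 ± 0.076, adjusted p = 0.0331). Prdx1, a peroxiredoxin that removes hydrogen peroxide, had 413, 399.5 and 383 CPM in O2 lungs, against 299, 302 and 293 CPM in RA lungs (log2 fold change 0.41 ± 0.062, adjusted p = 0.0226). In each of the 3 genes the lowest O2 lung stood above the highest RA lung. In the fit of 24 libraries their adjusted p-values were 0.0871, 0.141 and 0.204, which did not pass.

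**Figure D3:**
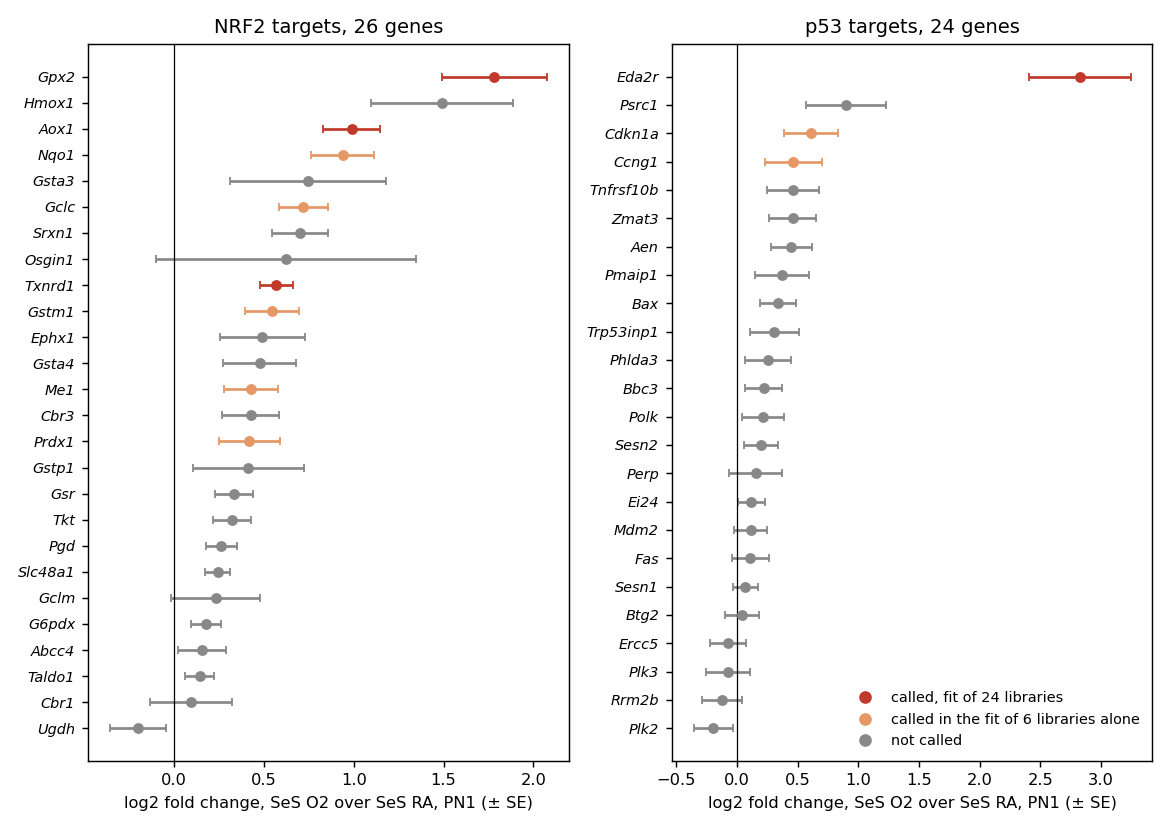
Log2 fold changes of SeS O2 over SeS RA at PN1 (x axis, ± SE, 3 libraries a group) of the 26 NRF2 targets on the left and the 24 p53 targets on the right with at least 5 CPM. Red marks genes called in the fit of 24 libraries, orange those called only with the 6 libraries alone; 25 NRF2 targets and 20 p53 targets lie right of 0.

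Other antioxidant genes, of which Prdx1 and Srxn1 are also on the NRF2 list, were mostly positive without passing the main test. Of 16 thioredoxin, peroxiredoxin and superoxide dismutase genes 14 were positive, with a median of 0.15, and in 7 all O2 lungs were above all RA lungs, against 8.82% of all genes. None was called in the fit of 24 libraries and 1, Prdx1, in the fit of 6. Without RA replicate 2 the median was 0.055 with 12 positive. Srxn1, which repairs over-oxidized peroxiredoxins, had 25.2, 20.7 and 19.9 CPM in O2 lungs, against 14.3, 11.1 and 15.1 CPM in RA lungs (log2 fold change 0.70 ± 0.16, adjusted p = 0.0854). Sod1, the cytosolic copper and zinc superoxide dismutase, had 453, 572 and 479 CPM in O2 lungs, against 428, 359.5 and 367 CPM in RA lungs (log2 fold change 0.38 ± 0.11, adjusted p = 0.0935). Both genes were without overlap between groups. Prdx6, the peroxiredoxin of lung epithelium that also acts on phospholipids, had a log2 fold change of 0.41 ± 0.13 (adjusted p = 0.099), and Txn1, the substrate of Txnrd1, one of 0.29 ± 0.10 (adjusted p = 0.139).

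No iron gene passed the main test. Ftl1, the ferritin light chain that stores iron, had 1559, 1375 and 1386 CPM in O2 lungs, against 1025, 945 and 1004 CPM in RA lungs (log2 fold change 0.54 ± 0.11, adjusted p = 0.0854). It was called with the 6 libraries alone (adjusted p = 0.0226). Hmox1, heme oxygenase 1, which frees iron from heme, had 136, 33.7 and 58.3 CPM in O2 lungs, against 27.4, 25.2 and 28.4 CPM in RA lungs. The 1st O2 lung was far above the others and the lowest O2 lung only slightly above the RA lungs, and the log2 fold change was 1.49 ± 0.39 (adjusted p = 0.0854). Fth1, the ferritin heavy chain, had a log2 fold change of 0.33 ± 0.15 and Hfe, the hemochromatosis protein that binds the transferrin receptor, one of 0.26 ± 0.12, and neither passed. The 14 metallothionein and iron genes had a median of 0.14 with 9 positive, and of 0.056 with 8 positive without RA replicate 2.

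Selenoproteins other than Gpx2 and Txnrd1 did not pass. Of the 20 with at least 5 CPM, 2 rose, against 0.0401% of all genes called higher, and none fell. Of the 20, 17 were positive, and the median log2 fold change was 0.069. Without RA replicate 2 only 10 were positive and the median was -0.0041. Selenoh, a redox protein of the nucleolus, had 35.8, 36.9 and 33.2 CPM in O2 lungs, against 24.8, 33.3 and 27.1 CPM in RA lungs, with the groups overlapping (log2 fold change 0.31 ± 0.17, adjusted p = 0.396). Gpx4, which reduces lipid peroxides in membranes, had 343, 397 and 335 CPM in O2 lungs, against 335, 278 and 308 CPM in RA lungs (log2 fold change 0.22 ± 0.15, adjusted p = 0.55). The 2 genes that rose belong to the NRF2 list as well.

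p53 targets were led by Eda2r, the only one of 24 that passed (adjusted p = 0.0124), against 0.0401% of all genes called higher. The median of the list was 0.22, 20 of 24 members were positive, and 11 had all O2 lungs above all RA lungs, against 8.82% of all genes. Cdkn1a, which encodes the cell cycle inhibitor p21, had 68.9, 65.5 and 70.6 CPM in O2 lungs, against 51.1, 38.7 and 44.7 CPM in RA lungs. Its groups did not overlap. It was called with the 6 libraries alone (log2 fold change 0.59 ± 0.10, adjusted p = 0.0251) and not in the fit of 24 (adjusted p = 0.156). Ccng1, cyclin G1, named here after its values were seen, had 177, 164 and 177 CPM in O2 lungs, against 132, 118 and 125 CPM in RA lungs and was likewise called only with the 6 libraries (log2 fold change 0.45 ± 0.072, adjusted p = 0.0226). Psrc1, a microtubule protein, had a log2 fold change of 0.90 ± 0.33 and Aen, a p53-induced nuclease, one of 0.45 ± 0.17, and neither passed in either fit. Mdm2, the ubiquitin ligase of p53, Btg2, an anti-proliferative gene, and Sesn1, a sestrin, all 3 chosen after their values were seen, had log2 fold changes of 0.11 ± 0.13, 0.041 ± 0.14 and 0.069 ± 0.10.

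Cell cycle genes lay slightly above 0 without any call. Of 38 members 37 were positive, with a median of 0.23 and a range from -0.15 to 0.52, and none passed in either fit. In 3 of the 38 all O2 lungs were above all RA lungs, against 8.82% of all genes. Ccne2, cyclin E2, had 40.2, 22.8 and 30.4 CPM in O2 lungs, against 16.6, 26.96 and 21.7 CPM in RA lungs. Pcna, the sliding clamp of DNA replication, had 177, 140 and 156 CPM in O2 lungs, against 120.4, 135 and 132 CPM in RA lungs. The 1st O2 lung was the highest of all 6 for both genes, and the 1st RA lung the lowest. Without O2 replicate 1 the median was 0.083 with 31 positive, and without RA replicate 1 it was 0.11 with 31 positive. Tyms, which makes thymidylate, and Rrm1, a subunit of ribonucleotide reductase, had log2 fold changes of 0.36 ± 0.19 and 0.25 ± 0.15.

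Macrophage genes lay on the higher side without passing the main test. All 6 macrophage markers were positive with a median of 0.27, and 4 had all O2 lungs above all RA lungs, against 8.82% of all genes. The summed level of the list was 309 to 337 CPM in O2 lungs, against 264 to 290 CPM in RA lungs. Marco, a scavenger receptor of alveolar macrophages, had 38.5, 36.8 and 31.3 CPM in O2 lungs, against 24.8, 20.3 and 19.7 CPM in RA lungs and was called with the 6 libraries alone (log2 fold change 0.70 ± 0.11, adjusted p = 0.0226; fit of 24 libraries adjusted p = 0.363). Adgre1, which encodes F4/80, had a log2 fold change of 0.37 ± 0.18, Cd68 one of 0.28 ± 0.18 and Fcgr1, an Fc receptor, one of 0.25 ± 0.18, and none of these passed in either fit.

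Further genes known from macrophages or lymphatic endothelium were among the 59 calls of the fit of 6 libraries and are named after their values were seen. Spp1, which encodes osteopontin, had 58.9, 71.9 and 69.9 CPM in O2 lungs, against 39.97, 28.98 and 28.9 CPM in RA lungs (log2 fold change 1.02 ± 0.14 in that fit, adjusted p = 0.0219). Lyve1, a hyaluronan receptor of lymphatic vessels and of some tissue macrophages, had 439.5, 508 and 523 CPM in O2 lungs, against 326, 247 and 284 CPM in RA lungs (log2 fold change 0.76 ± 0.11, adjusted p = 0.0226). Both showed clear gaps between the groups. Clec4n, which encodes dectin-2, and Creg1, a lysosomal glycoprotein, had log2 fold changes of 0.65 ± 0.12 and 0.49 ± 0.062 (adjusted p = 0.0303 and 0.0219). In the fit of 24 libraries the adjusted p-values of Spp1, Lyve1, Clec4n and Creg1 were 0.0902, 0.0854, 0.143 and 0.0854.

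No cytokine or complement gene passed. The 11 chemokine and cytokine genes of at least 5 CPM had a median of 0.22 with 8 positive (0.12 without RA replicate 2), and the 12 acute phase and complement genes one of 0.05 with 8 positive (-0.077 with 4 positive without RA replicate 2). Il1rn, the interleukin 1 receptor antagonist, had 30.2, 27.2 and 28.99 CPM in O2 lungs, against 28.5, 15.2 and 19.03 CPM in RA lungs, with overlap between groups. Cxcl12, a chemokine of stromal and endothelial cells, had 123, 137 and 117 CPM in O2 lungs, against 159, 159.9 and 199.9 CPM in RA lungs, with every O2 lung below every RA lung (log2 fold change -0.46 ± 0.28, adjusted p = 0.501). The 18 interferon-stimulated genes had a median of 0.16 with 14 positive, and of 0.067 with 13 positive without O2 replicate 3. Among them Ifit3, an antiviral protein, had 17.1, 16.2 and 23 CPM in O2 lungs, against 12.4, 13.02 and 10.97 CPM in RA lungs (log2 fold change 0.63 ± 0.20, adjusted p = 0.107). Rsad2, which encodes viperin, ranged from 30.4 to 94.7 CPM in O2 lungs and from 50.9 to 155.7 CPM in RA lungs. Ifitm3, an interferon-induced membrane protein named here after its values were seen, had 161, 142 and 154 CPM in O2 lungs, against 116, 119 and 116 CPM in RA lungs and was called with the 6 libraries alone (adjusted p = 0.0346). The 3 lymphocyte markers had a median of -0.12, and of 0.13 without O2 replicate 2. Neutrophil markers, S100a8 and S100a9 among them, were positive in 6 of 6 genes with a median of 0.35, and the highest values of both were in the 2nd O2 lung, the library of conflicting oxygen labels. Without it the median was 0.12. S100a8 had 69.5, 115 and 78.9 CPM in O2 lungs, against 73.1, 52.6 and 78.99 CPM in RA lungs, a log2 fold change of 0.36 ± 0.33 (adjusted p = 0.728).

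Genes of vascular tone lay mostly on the lower side. Of 18 members 15 were negative, the median was -0.15, and 7 had all O2 lungs below all RA lungs, against 8.21% of all genes; none passed in the fit of 24 libraries. Calcrl, the receptor for adrenomedullin and calcitonin gene-related peptide in endothelium, had 747, 706 and 778 CPM in O2 lungs, against 1135, 924 and 1067 CPM in RA lungs. It was called lower with the 6 libraries alone (log2 fold change -0.50 ± 0.094, adjusted p = 0.0375; fit of 24 libraries adjusted p = 0.168). Edn1, the vasoconstrictor endothelin 1, had 14.1, 15.2 and 19.4 CPM in O2 lungs, against 29.7, 19.7 and 24.04 CPM in RA lungs (log2 fold change -0.60 ± 0.26, adjusted p = 0.253). Gucy1a1, a subunit of the nitric oxide receptor, and Nos2, the inducible nitric oxide synthase, had log2 fold changes of -0.34 ± 0.14 and -0.42 ± 0.21 (adjusted p = 0.234 and 0.332).

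Vascular genes called lower only with the 6 libraries, and named after their values were seen, were Sox17, Kcnk3 and Heg1. Sox17, a transcription factor of arterial endothelium, had 36.8, 34.04 and 36.03 CPM in O2 lungs, against 50.97, 61.8 and 53.4 CPM in RA lungs (log2 fold change -0.65 ± 0.084, adjusted p = 0.0219; fit of 24 libraries 0.0854). Kcnk3, the potassium channel TASK-1 of pulmonary arteries, had 63.7, 64.98 and 67.2 CPM in O2 lungs, against 81.7, 88.3 and 91.95 CPM in RA lungs (log2 fold change -0.43 ± 0.069, adjusted p = 0.0226; fit of 24 libraries 0.163). In both genes no O2 lung reached the lowest RA lung. Heg1, a receptor at endothelial junctions, had a log2 fold change of -0.38 ± 0.072 (adjusted p = 0.04; fit of 24 libraries 0.206). The 8 capillary markers had a median of -0.17 with 3 positive (-0.10 without RA replicate 1), and their summed level was 2400 to 2510 CPM in O2 lungs, against 2670 to 2910 CPM in RA lungs. Kdr, the main VEGF receptor, had 423, 414 and 372 CPM in O2 lungs, against 446, 514 and 569 CPM in RA lungs (log2 fold change -0.34 ± 0.18, adjusted p = 0.408). Plvap, a protein of endothelial diaphragms, had 185, 197 and 165 CPM in O2 lungs, against 126, 147 and 159 CPM in RA lungs (log2 fold change 0.34 ± 0.15, adjusted p = 0.255). The 2 markers thus lay on opposite sides of 0, and neither passed.

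VEGF, BMP and Notch lists held no called gene. Among 15 VEGF receptor and angiopoietin genes the median was -0.11 (0.0029 without O2 replicate 3), with Flt1, the decoy VEGF receptor, at -0.26 ± 0.14 and Angpt2, the vessel-destabilizing angiopoietin, at 0.45 ± 0.22. Bmpr2, the BMP receptor of pulmonary vessels, had 384, 358 and 373 CPM in O2 lungs, against 443, 459 and 484 CPM in RA lungs (log2 fold change -0.31 ± 0.15, adjusted p = 0.322). Its O2 lungs were all below its RA lungs. Of 18 Notch genes 6 were positive, with a median of -0.043. The 4 with the smallest p were all negative: Jag2, a Notch ligand (-0.35 ± 0.14), Notch1, a receptor (-0.27 ± 0.11), Rfng, a glycosyltransferase that modifies the receptors (-0.29 ± 0.13), and Maml1, a coactivator (-0.23 ± 0.11), with adjusted p of 0.207 to 0.308.

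Epithelial identity genes differed little. Alveolar type 2 markers had a median of 0.17 with 7 of 8 positive and alveolar type 1 markers one of 0.039 with 6 of 8 positive, and none passed. Without RA replicate 2 the type 1 median was -0.059 with 3 of 8 positive. All O2 lungs were above all RA lungs in 3 type 2 markers and 1 type 1 marker, against 8.82% of all genes. Ager, a type 1 marker, had 2164, 2680 and 2255 CPM in O2 lungs, against 1993, 2039 and 2109 CPM in RA lungs (log2 fold change 0.21 ± 0.22, adjusted p = 0.792). Sftpc had a log2 fold change of 0.23 ± 0.24 (adjusted p = 0.783). Tppp3, a tubulin-binding protein of ciliated cells, had 337, 351 and 292 CPM in O2 lungs, against 252, 242 and 243 CPM in RA lungs and was called with the 6 libraries alone (adjusted p = 0.0406). Scgb1a1, the club cell secretoglobin, had a log2 fold change of 0.093 ± 0.22. The 6 airway markers had a median of 0.091 and the 5 smooth muscle and myofibroblast markers one of 0.20, and without RA replicate 2 these were -0.071 and 0.064. The 14 injury keratins and genes of transitional epithelium had a median of 0.18 with 13 positive, and of 0.033 with 7 positive without RA replicate 2. Krt8, a keratin of simple epithelia, had 343, 425 and 323 CPM in O2 lungs, against 349.9, 246 and 320.4 CPM in RA lungs, with overlap. Lgals3, galectin 3, had 163, 174 and 171 CPM in O2 lungs, against 148, 111 and 117 CPM in RA lungs, without overlap (log2 fold change 0.44 ± 0.26, adjusted p = 0.486). Of 17 ion channels, pumps and water channels of fluid clearance none passed, and the median was 0.004; Aqp1, the endothelial water channel, had a log2 fold change of -0.23 ± 0.14.

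Matrix and growth factor lists had medians near 0, and most held fewer positive than negative members. The medians were -0.081 for 17 elastic fibre genes (4 positive), -0.0089 for 21 collagen chains (9 positive) and -0.00018 for 24 TGF-beta and BMP genes (12 positive). They were -0.069 for 29 Wnt genes (8 positive, and 14 without RA replicate 3), -0.053 for 13 insulin-like growth factor genes (5 positive) and -0.067 for 11 retinoic acid genes (4 positive). No member passed. The elastic fibre gene Ltbp2 and the collagen chain Col15a1 had log2 fold changes of -0.43 ± 0.20 and -0.39 ± 0.19, both with overlap between groups. The Wnt list's Lgr6 and the growth factor list's Igf1r had -0.48 ± 0.26 and -0.29 ± 0.15, both without overlap. Each had the smallest p of its list, with an adjusted p of 0.304 to 0.396. Eln, which encodes elastin, had 3364, 4444 and 3160 CPM in O2 lungs, against 4370, 3389 and 4689 CPM in RA lungs, with the groups interleaved. Col4a1, a basement membrane collagen, had a log2 fold change of -0.17 ± 0.17, and Wnt5a, a Wnt of the mesenchyme, one of -0.22 ± 0.14. Among retinoic acid genes Aldh1a1, a retinaldehyde dehydrogenase, had 538, 622 and 522 CPM in O2 lungs, against 453, 259 and 338 CPM in RA lungs (log2 fold change 0.68 ± 0.25, adjusted p = 0.16). Cyp26b1, which degrades retinoic acid, had 5.41, 9.58 and 3.86 CPM in O2 lungs, against 11.2, 9.97 and 12.2 CPM in RA lungs (log2 fold change -0.82 ± 0.33, adjusted p = 0.212). Neither gene overlapped between groups.

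Pde4b and Ankrd37 also had low values in O2 lungs. Pde4b, a phosphodiesterase that degrades cyclic AMP, named here after its values were seen, had 46.3, 47.5 and 37.3 CPM in O2 lungs, against 158, 74.3 and 131 CPM in RA lungs. All O2 lungs lay below all RA lungs, which varied widely among themselves. Its log2 fold change was -1.49 ± 0.24 with the 6 libraries alone (adjusted p = 0.0226) and -1.47 ± 0.35 in the fit of 24 (adjusted p = 0.0854). Ankrd37, a gene induced by hypoxia through HIF-1, had 3.295, 4.71 and 3.72 CPM in O2 lungs, against 14.9, 5.64 and 10.9 CPM in RA lungs (log2 fold change -1.42 ± 0.28, adjusted p = 0.0843; 6 libraries alone, adjusted p = 0.0679). Pfkfb3, which drives glycolysis, had 32.7, 31.03 and 29.8 CPM in O2 lungs, against 38.3, 38.9 and 42.8 CPM in RA lungs and was called lower with the 6 libraries alone (log2 fold change -0.37 ± 0.075, adjusted p = 0.0482). The hypoxia-inducible and glycolytic genes, Ankrd37 and Pfkfb3 included, did not follow as a list: 14 of 25 were positive and the median was 0.017. Without RA replicate 2 the list had 9 positive and a median of -0.068. Slc16a3, a lactate carrier, was at -0.30 ± 0.12 and Aldoa, a glycolytic aldolase, at 0.24 ± 0.12.

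Slc6a6 and Zmynd8 also had lower values in every O2 lung, and both are named after their values were seen. Slc6a6, the taurine transporter, had 172, 149 and 143 CPM in O2 lungs, against 244, 206 and 267 CPM in RA lungs (log2 fold change -0.64 ± 0.11 with the 6 libraries alone, adjusted p = 0.0244; fit of 24 libraries 0.0854). Zmynd8, a chromatin reader, had 47.8, 54.2 and 44.3 CPM in O2 lungs, against 65.9, 72.8 and 76.2 CPM in RA lungs (log2 fold change -0.57 ± 0.087, adjusted p = 0.0226; fit of 24 libraries 0.0854). Glul, glutamine synthetase, and Nfat5, a transcription factor of the osmotic response, were likewise named after their values were seen. Glul and Nfat5 were called lower in the same fit of 6, with log2 fold changes of -0.40 ± 0.074 and -0.36 ± 0.061 (adjusted p = 0.0366 and 0.0263; fit of 24 libraries 0.335 and 0.0914).

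Other stress and regulatory lists held no gene called in the fit of 24 libraries. The medians were 0.035 for 18 integrated stress response genes, 0.013 for 17 clock genes, 0.023 for 12 heat shock genes, -0.0033 for 15 glucocorticoid-responsive genes and 0.06 for 16 immediate early genes (-0.17 with 4 positive without O2 replicate 2). Atf4, the transcription factor of the integrated stress response, had a log2 fold change of -0.12 ± 0.11, and Dnajb1, a heat shock co-chaperone, one of -0.055 ± 0.084. Egr1, an immediate early transcription factor, had 13.9, 60.6 and 21.2 CPM in O2 lungs, against 12.4, 10.3 and 16.4 CPM in RA lungs, highest in the 2nd O2 lung and with overlap (log2 fold change 1.29 ± 0.49, adjusted p = 0.179). The 6 aryl hydrocarbon receptor genes had a median of 0.16, and of -0.0069 without RA replicate 2. Among them Cyp1a1, the classic target, had 26.3, 22.9 and 20.1 CPM in O2 lungs, against 14.6, 21.3 and 17.1 CPM in RA lungs, with overlap (log2 fold change 0.39 ± 0.32, adjusted p = 0.695).

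Lipid and mitochondrial genes were likewise not called. Of 22 cholesterol synthesis genes 19 were positive with a median of 0.17, and 19 with a median of 0.058 without RA replicate 2. Cyp51, which demethylates lanosterol, had 110, 93.6 and 90 CPM in O2 lungs, against 80.8, 73.1 and 84.5 CPM in RA lungs (log2 fold change 0.30 ± 0.13, adjusted p = 0.262). The 14 fatty acid synthesis genes had a median of 0.087 with 10 positive (0.023 without O2 replicate 1). Scd1, a fatty acid desaturase, had 369, 389.8 and 253 CPM in O2 lungs, against 261, 223 and 264 CPM in RA lungs, with the 3rd O2 lung within the range of RA. The 12 mitochondrial transcripts had a median of -0.058 with 5 positive. Among them mt-Nd1, a subunit of complex I, had 7276, 7919 and 7765 CPM in O2 lungs, against 6518, 5440 and 5865 CPM in RA lungs (log2 fold change 0.37 ± 0.17, adjusted p = 0.306). The lowest O2 lung was above every RA lung. In contrast mt-Nd6, the one complex I subunit on the light strand, had 98.7, 80.3 and 81.4 CPM in O2 lungs, against 121, 101 and 115 CPM in RA lungs (log2 fold change -0.37 ± 0.17, adjusted p = 0.278).

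**Figure D4:**
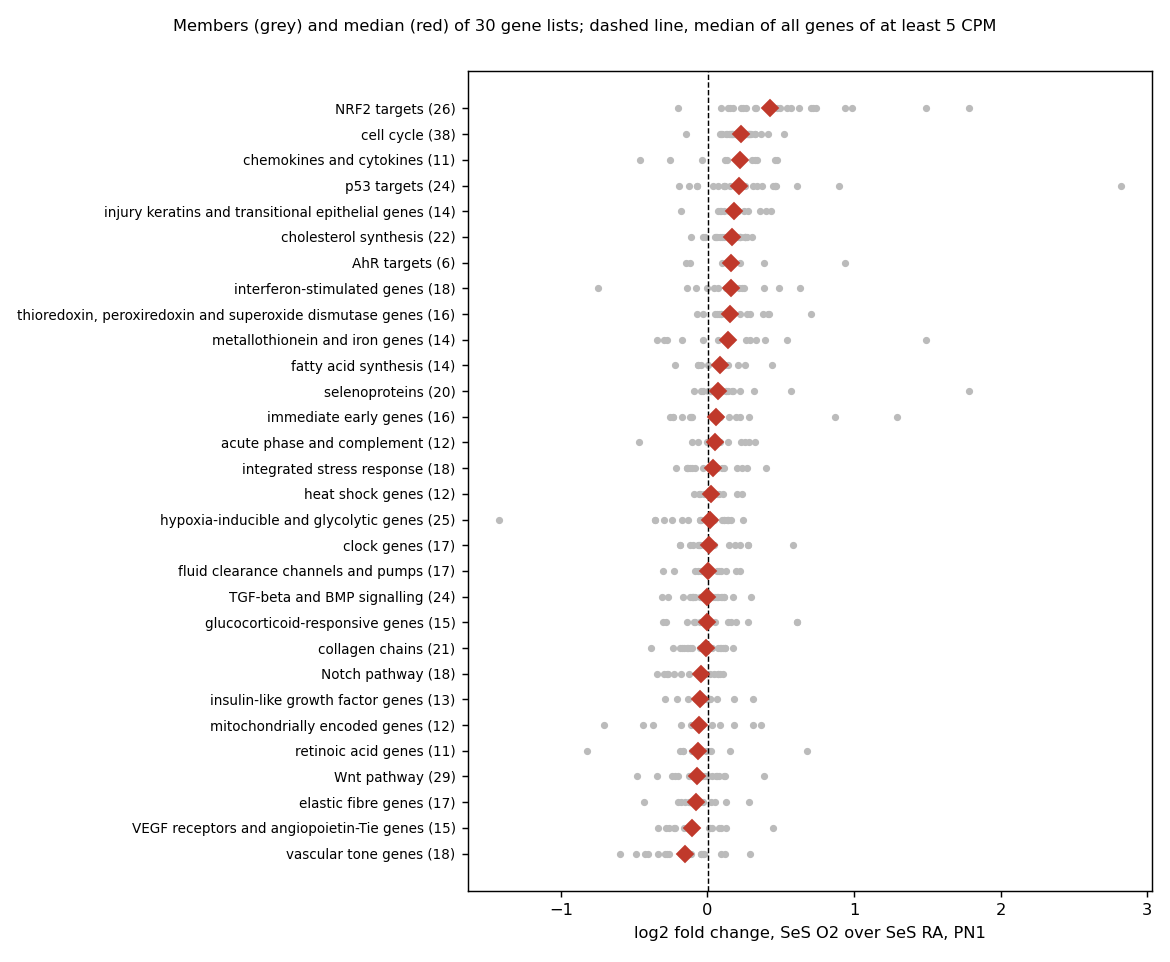
Log2 fold changes of SeS O2 over SeS RA at PN1 (x axis) of the members of at least 5 CPM (grey points, number in brackets) and their median (red diamonds) for 30 pathway lists, with the median of all 12464 genes as a dashed line. NRF2 targets have the highest median, 0.43, and vascular tone genes the lowest, -0.15.

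Markers of neighbouring tissues were high in single libraries. Skeletal muscle markers summed to 419 CPM in O2 replicate 3, against 37.7 to 50.8 CPM in the other O2 libraries and 29.9 to 78.4 CPM in RA libraries. Thymus markers summed to 23.4 CPM in that library and at most 2.91 CPM in the others. Liver markers summed to 706 CPM in RA replicate 1, 68.8 to 121 CPM in O2 libraries and 37.7 and 119 CPM in the other RA libraries. In the liver list all 5 genes of at least 5 CPM had negative log2 fold changes (median -1.71), and without RA replicate 1 all 5 were positive (median 0.28). Of these albumin, Alb, had 29.2, 28.9 and 57.04 CPM in O2 lungs, against 329, 49.1 and 14.3 CPM in RA lungs. The O2 values of Alb lay inside the range of RA. Myh8, a myosin of newborn skeletal muscle, had 4.14, 1.89 and 106 CPM in O2 lungs, against 2.46, 1.91 and 2.42 CPM in RA lungs, so its log2 fold change of 4.04 ± 1.38 came from 1 library. The 5 heart muscle genes were all negative with a median of -0.37, and without RA replicate 1 3 of 5 were positive with a median of 0.066. No thymus or brown fat marker averaged at least 5 CPM over the 6 libraries. Krt15, the only oesophagus and skin marker that did, had a log2 fold change of 0.11 ± 0.54. Erythroid genes had a median of -0.57, and of -0.31 without O2 replicate 2. Hbb-bs, an adult beta globin, had 3315, 1992 and 3609 CPM in O2 lungs, against 4028, 5935 and 5670 CPM in RA lungs (adjusted p = 0.362). None of these genes passed, and their part in other values was not tested.

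The O2 effect was set beside that in selenium-deficient (SeD) pups at PN1, whose parents ate a chow with under 0.01 ppm sodium selenite, and beside that in SeS pups at PN3. Each is a comparison of 3 O2 and 3 RA lungs that shares no library with the 6 described here. All 3 comparisons were taken from the fit of 24 libraries, so they share its estimate of the spread. The genes called here moved in the same direction and were called in both other comparisons, 6 of 6 in each. They were 6 of the 488 genes of at least 5 CPM called in SeD pups at PN1 and 6 of the 2975 called in SeS pups at PN3. In SeD pups at PN1 2.26% of genes of at least 5 CPM were called higher and 1.65% lower (3.92% in all). In SeS pups at PN3 4.35% were called higher and 19.5% lower (23.9% in all), against 0.0481% here. At PN3 smell receptor genes summed to 458, 270 and 246 CPM in SeS O2 lungs, against 43, 45.9 and 26.4 CPM in RA lungs. Their part in these calls was not tested. Ntrk2 had 3.62, 3.804 and 3.12 CPM in SeD O2 lungs, against 23.5, 16.7 and 29.9 CPM in SeD RA lungs (log2 fold change -2.73 ± 0.30). At PN3 Ntrk2 had 4.22, 5.37 and 4.97 CPM in SeS O2 lungs, against 20.7, 21.8 and 41.8 CPM in SeS RA lungs (log2 fold change -2.53 ± 0.29). The O2 and RA ranges of Ntrk2 were thus apart in all 3 pairs of groups. Eda2r had 5.74, 10.4 and 17.3 CPM in SeD O2 lungs, against 1.59, 1.98 and 1.81 CPM in SeD RA lungs (log2 fold change 2.64 ± 0.42). At PN3 Eda2r had 27.5, 33.5 and 32.7 CPM in SeS O2 lungs, against 1.77, 2.19 and 1.78 CPM in SeS RA lungs (log2 fold change 4.03 ± 0.43). Gpx2 had 20.2, 20.3 and 40.7 CPM in SeD O2 lungs, against 4.99, 3.44 and 3.22 CPM in SeD RA lungs (log2 fold change 2.80 ± 0.30). At PN3 Gpx2 had 19.1, 18.4 and 19.97 CPM in SeS O2 lungs, against 3.74, 4.12 and 5.33 CPM in SeS RA lungs (log2 fold change 2.12 ± 0.30). Levels of Gpx2 in RA lungs were low throughout, and the 3rd SeD O2 lung was the highest of all.

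Genes called only with the 6 libraries alone were followed in the same way. Of those 53 genes, 50 had the same sign in SeD pups at PN1 and 20 were called there in that direction. In SeS pups at PN3 51 had the same sign and 36 were called in that direction. Among all genes of at least 5 CPM 3.92% were called in SeD pups and 23.9% in SeS pups at PN3, in either direction. The share of all genes with the same sign is not given here. Cdkn1a had 110.3, 129 and 128 CPM in SeS O2 lungs at PN3, against 33.1, 32.8 and 37.3 CPM in SeS RA lungs at PN3 (log2 fold change 1.83 ± 0.23). The difference between PN1 and PN3 was -1.22 ± 0.31 (adjusted p = 0.264), which did not pass. Pde4b had 42.4, 47.6 and 52.6 CPM in SeD O2 lungs, against 84.8, 125 and 183 CPM in SeD RA lungs (log2 fold change -1.46 ± 0.35). At PN3 it had 44.8, 133 and 123 CPM in SeS O2 lungs, against 79.6, 94.5 and 122 CPM in SeS RA lungs (log2 fold change 0.025 ± 0.34), where the groups overlapped. The difference for Pde4b was -1.50 ± 0.49 (adjusted p = 0.328). Of the 26 NRF2 targets 17 were called higher in SeD pups at PN1 and 15 in SeS pups at PN3, against 3 here, where 2.26%, 4.35% and 0.0401% of all genes were called higher in this order, and the medians were 0.65, 0.48 and 0.43. Of the 24 p53 targets 1 was called higher in SeD pups at PN1 and 16 in SeS pups at PN3, against 1 here, beside the same shares of all genes. The cell cycle list had 38 of 38 members of the same sign in SeD pups at PN1 with a median of 0.30, and 4 of 38 in SeS pups at PN3 with a median of -0.36.

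**Figure D5:**
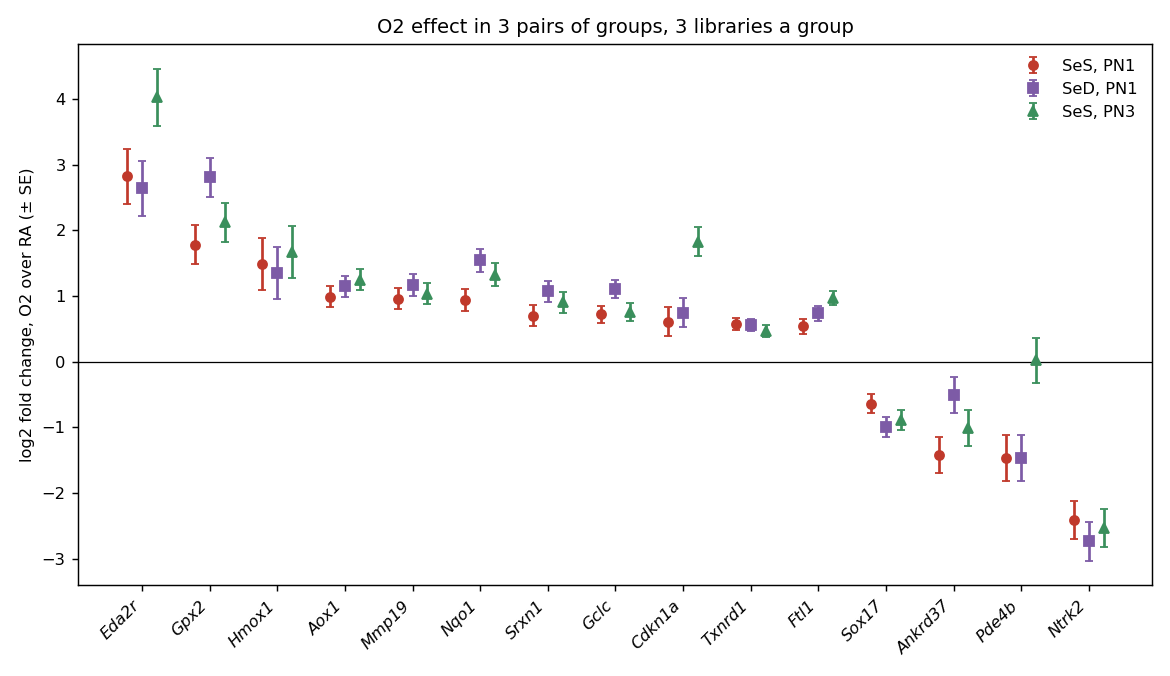
Log2 fold changes of O2 over RA (y axis, ± SE, 3 libraries a group) of 15 genes in SeS pups at PN1 (red circles), SeD pups at PN1 (purple squares) and SeS pups at PN3 (green triangles). The signs agree for 14 genes, and Pde4b lies at 0.025 at PN3, against -1.47 in SeS pups at PN1.

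The differences between these effects were tested as interactions, and they use the 6 libraries on one side. No gene passed for SeS minus SeD at PN1 in edgeR (0 of 23831), although 4166 (17.5%) had an unadjusted p under 0.05, DESeq2 called 1287 and limma 3260. Without the 3rd SeD RA library edgeR called 2937 genes, 76 of them of at least 5 CPM. Smell receptor genes summed to 332, 873 and 30.1 CPM in the 3 SeD RA libraries, against 239, 240 and 138 CPM in SeD O2 libraries. Liver markers summed to 8690, 5430 and 343 CPM in SeD O2 libraries, against 4.38 to 11.8 CPM in SeD RA libraries, and their part in the difference was not tested. The smallest p-values among genes of at least 5 CPM were those of Gm10095, H2-Eb1, Adgre4, Upk1a, Mrpl49 and Ube2f, all with an adjusted p of 0.095. Adgre4, an adhesion receptor of macrophages, had 13.1, 10.1 and 12.2 CPM in O2 lungs, against 11.4, 9.23 and 12.1 CPM in RA lungs in SeS pups, a log2 fold change of 0.11 ± 0.14. It had 7.795, 8.74 and 8.52 CPM in SeD O2 lungs, against 13.3, 14.98 and 14.6 CPM in SeD RA lungs, a log2 fold change of -0.78 ± 0.14, so the difference was 0.89 ± 0.20. H2-Eb1, a class II antigen-presenting molecule, had a log2 fold change of 0.26 ± 0.18 in SeS pups and -0.97 ± 0.18 in SeD pups. In the same order Upk1a, a uroplakin, had 0.12 ± 0.15 and 0.97 ± 0.15. Mrpl49, a mitochondrial ribosomal protein, had 0.051 ± 0.094 and 0.57 ± 0.095, and Ube2f, a NEDD8-conjugating enzyme, had -0.073 ± 0.079 and 0.34 ± 0.079. For Gpx2 and Nqo1 the differences were -1.02 ± 0.41 and -0.61 ± 0.24 (adjusted p = 0.181 and 0.185).

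For PN1 minus PN3 in SeS pups edgeR again called none of 23831 genes, with 2247 (9.43%) at an unadjusted p under 0.05, while DESeq2 called 75 and limma 747. Of the genes of at least 5 CPM with an unadjusted p under 0.05, 1458 (11.7%) had a higher and 180 (1.44%) a lower log2 fold change at PN1. Cxcr4, the receptor of Cxcl12, had the smallest p. It had 40.6, 35.9 and 45.1 CPM in O2 lungs, against 38.4, 42.3 and 36.1 CPM in RA lungs at PN1, with overlap. At PN3 it had 32.1, 22.3 and 25.4 CPM in SeS O2 lungs, against 52.2, 60.4 and 54.7 CPM in SeS RA lungs, without overlap. The difference of the effects was 1.13 ± 0.19 (adjusted p = 0.234). Pdgfra, the receptor that marks alveolar myofibroblast precursors, had 93.3, 87.9 and 95.3 CPM in O2 lungs, against 92.4, 96.4 and 85.3 CPM in RA lungs at PN1. It had 75.6, 100.3 and 75.8 CPM in SeS O2 lungs at PN3, against 191, 159.7 and 159 CPM in SeS RA lungs at PN3, a difference of 1.03 ± 0.21 (adjusted p = 0.234). Its groups overlapped at PN1 and were apart at PN3. Fdps, a farnesyl diphosphate synthase of the cholesterol pathway, differed by 0.92 ± 0.19, Mcf2l, a guanine nucleotide exchange factor, by 0.89 ± 0.19 and Fbxl19, an F-box protein that binds CpG islands, by 0.69 ± 0.14, each with an adjusted p of 0.234. Gm10095 belonged to both sets of smallest p and was high only in RA replicates 2 and 3 at PN1, with 0.366, 0.544 and 0.542 CPM in O2 lungs, against 0.1499, 53.2 and 90.2 CPM in RA lungs.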

How the data were processed

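The series holds 24 libraries of newborn mouse lung in 8 groups of 3 (diet, oxygen and age). Per the study's methods and the submitters' processing notes, the authors checked reads with FastQC, trimmed them with Trimmomatic, aligned them with HISAT2 to GRCm39 (mm39) and deposited whole-number counts per gene from featureCounts; the annotation release is not given in the sources used here. The deposited columns of fold changes and p-values from the authors' own DESeq2 comparisons were not used. Each library of the 6 held 27715912 to 36121040 counts. Genes were kept by filterByExpr (minimum count 10, minimum total 15), scaled by TMM and fitted in 1 model with the 8 groups by edgeR 4.0.16 in R 4.3.3 (glmQLFit, glmQLFTest, Benjamini-Hochberg over 23831 genes); standard errors were obtained from the size of the log2 fold change over the root of the F statistic. DESeq2 1.42.0 and limma 3.58.1 (voom with quality weights) were alternatives, and plots used matplotlib 3.10.9 in Python 3.11.15. The code of the edgeR fit was run on simulated counts with the same coefficient of variation for every gene. That run had no outlying library, so it does not show how far the calls here hold. CPM were computed here with TMM factors, except the sums of smell receptor genes. Genes of at least 5 CPM were named where called without overlap of libraries (up to 12 in each direction), among the 4 of smallest p in each of 45 lists (30 of pathways, 15 of cell markers), or among the 6 of smallest p in each difference of effects; others are marked as chosen after their values were seen. The members, lists and tests were chosen with earlier results of these data known. Promoters came from RefSeq (GRCm38.p6), and none of their coordinates were joined to the GRCm39 positions. No column of other samples was present. 1 gene that the naming rule picked is not reported here.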

Additional observations from a re-analysis of the deposited data

How the results depend on the processing

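For O2 against RA in SeS lungs at PN1, 9 genes were called over all genes and 6 of at least 5 CPM (5 higher, 1 lower), and the counts in this order were 956 and 91 with DESeq2 (35 higher and 56 lower of at least 5 CPM), 3313 and 457 with limma (191 and 266), 16 and 11 with no filter on low counts, 292 and 59 with only the 6 libraries fitted (33 and 26), and 0 and 0 with the library of conflicting oxygen labels counted as RA. An absolute log2 fold change above 1 left 3 of at least 5 CPM. Leaving out 1 library of the 6 gave 1 to 6 and 1 to 4. Same-numbered libraries correlated at -0.577, -0.732 and -0.437 in their deviations from the group means. Each such pair joined a library that expressed Ddx3y with a library that did not. These values therefore cannot show whether the replicate numbers pair the lungs. With the number as a replicate block 2 and 2 genes were called. No fold threshold, RLE size factors, TMM factors from genes of at least 5 CPM and a sex term gave 9 to 10 and 6 to 7.

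Alternatives chosen after seeing the data gave 481 and 49 without the 2nd SeD RA library at PN1, 1744 and 52 without the 3rd, and 16 and 12 without the 1st SeD O2 library at PN3. Within the 6 libraries alone they gave 688 and 69, 1 and 1, and 0 and 0 without O2 replicates 1, 2 and 3, 403 and 206, 93 and 28, and 0 and 0 without RA replicates 1, 2 and 3, 375 and 151 with a sex term, 0 and 0 with the replicate block, 0 and 0 with the conflicting library counted as RA, and 541 and 233 with DESeq2.

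For the difference between SeS and SeD at PN1 (0 and 0 called) the counts were 1287 and 89 with DESeq2, 3260 and 421 with limma, and 0 to 2937 and 0 to 76 on leaving out 1 library. For the difference between PN1 and PN3 in SeS lungs (0 and 0) they were 75 and 48 with DESeq2, 747 and 636 with limma, 37 and 34 with only the groups compared, and 0 to 1 and 0 to 1 on leaving out 1 library. The 6 called genes kept their sign under every alternative run, but the balance of calls of at least 5 CPM turned to more lower than higher with DESeq2 and limma. It turned as well without O2 replicate 3 (0 higher, 1 lower), RA replicate 2 (0 and 2) or RA replicate 3 (0 and 1). Without the 2nd or the 3rd SeD RA library at PN1 it was 13 and 36 or 21 and 31. Within the 6 libraries alone it was 53 and 153 without RA replicate 1, 10 and 18 without RA replicate 2 and 90 and 143 with DESeq2. Medians of lists turned without 1 library, among them liver (-1.71, 0.28 without RA replicate 1), heart muscle (-0.37, 0.066 without it), skeletal muscle (2.92, -0.0039 without O2 replicate 3) and immediate early genes (0.06, -0.17 without O2 replicate 2). The cause of these shifts was not tested.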
